A study of Arabidopsis thaliana with 30 samples.

Results

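Procambium is the tissue of undifferentiated dividing cells inside the root from which xylem and phloem arise, and the 10 genes described here are regulators of its formation and of vascular patterning in Arabidopsis. They are given by name, the rule uses no measured value although they were listed with earlier results of these data known, and they are 10 of the 32833 genes in the count table: LHW (AT2G27230), TMO5 (AT3G25710), T5L1 (AT1G68810), LOG3 (AT2G37210), LOG4 (AT3G53450), WOL (AT2G01830), AHP6 (AT1G80100), PXY (AT5G61480), ATHB8 (AT4G32880) and PHB (AT2G34710). All 10 passed the filter on low counts that left 24866 genes for testing. The libraries came from wild type Arabidopsis thaliana roots of seedlings kept for 6 days at 22 °C in the D-Root device, which shades the root, on MS medium with low phosphate (LPi) or high phosphate (HPi). The treatment notes give 5 µM phosphate for LPi, while the sample labels call the medium phosphate free, so the exact level is uncertain. Fluorescent cells were isolated by FACS from 5 reporter lines, SHR::GFP for stele, J0661 for pericycle, J0571 for cortex, WER::GFP for epidermis and J3411 for lateral root cap. Every cell type is represented by its own line, so an effect of cell type and an effect of line cannot be told apart. There were 3 LPi and 3 HPi libraries per cell type, 30 in all and 10 groups, and the labels do not say that replicates came from separate cultures, so each p-value reflects the spread of these libraries alone, which may be technical.

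The bHLH protein LHW forms dimers with TMO5 or with its close relative T5L1, and these dimers promote the divisions that widen the vascular cylinder. Among the genes they switch on are LOG4 and LOG3, which encode enzymes that release active cytokinin. Cytokinin is perceived by the receptor kinase WOL, while AHP6 is a pseudo-phosphotransfer protein that inhibits the signal where protoxylem forms. PXY is the receptor kinase for a peptide signal that keeps procambial cells dividing, and ATHB8 and PHB are transcription factors of the HD-ZIP III class, which direct xylem identity and are cleaved under the guidance of the microRNAs miR165 and miR166.

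Reads assigned to genes ranged from 427064 to 122076663 per library (median 16836088.5), and 16455 to 29409 genes were detected. The 3 shallowest libraries were stele LPi replicate 1 (427064 reads), stele HPi replicate 1 (1097568 reads) and pericycle LPi replicate 3 (1863306 reads), which also had the lowest mean correlations with the other libraries of their cell type (0.726, 0.819 and 0.677). Epidermis LPi replicate 3 and epidermis HPi replicate 3 correlated at 0.9952. Marker genes were checked as summed levels in TMM-scaled counts per 1e6 reads (CPM), given as the range over the 6 libraries of a sort. The 7 xylem markers summed to 2073 to 7913 CPM in stele libraries and to at most 164 CPM in any other library. The 6 endodermis markers summed to 3015 to 9399 CPM in the cortex sort. CASP1 carried most of this sum, with means of 3154 CPM at LPi and 5088 CPM at HPi, while ESB1 was near 0 (0.021 and 0.119 CPM). In the same sort the cortex marker AT1G09750 stayed at or under 6.62 CPM. The other cortex marker, AT1G62500, was removed by the filter on low counts, with 5 and 8 reads over the LPi and HPi libraries of that sort. Below, cortex is therefore only the label of the J0571 sort, in which endodermis markers were high and cortex markers low. The term outer sorts covers this sort, epidermis and lateral root cap by their labels. In the stele sort the endodermis markers summed to 262 CPM in LPi replicate 1 and 1174 CPM in HPi replicate 1, and to at most 58.3 CPM in the other 4 libraries. Of the 3 pericycle markers, GATA23 was highest in the pericycle sort, with means of 45.2 CPM at LPi and 11.7 CPM at HPi, and did not exceed 2.26 CPM in any library of the other sorts. PHO1 was at 31.3 and 16.3 CPM there, close to stele (34.7 and 18.6 CPM) and above epidermis (3.41 and 1.97 CPM). TIP2;3, which carries most of the summed level, was lower in pericycle (422 and 511 CPM) than in epidermis (1112 and 1331 CPM), so that the 3 summed to 282 to 871 CPM in the pericycle sort and 833 to 1656 CPM in the epidermis sort. The 5 phloem markers summed to 80.3 to 327 CPM in the pericycle sort, against 36.5 to 144 CPM in the stele sort. SUC2 carried most of this sum, with pericycle means of 143 CPM at LPi and 254 CPM at HPi. At HPi the means of CALS7 and SEOR1 were higher in lateral root cap (6.37 and 2.29 CPM) than in pericycle (1.80 and 2.04 CPM). Those of SUC2, APL and NEN4 were higher in pericycle. The 5 root cap markers were in the same range in the lateral root cap sort (603 to 1780 CPM) and the epidermis sort (779 to 1215 CPM). The sums of the 6 epidermis markers also overlapped between these sorts, at 118 to 288 CPM in lateral root cap and 134 to 257 CPM in epidermis. The part of other cell types in the results below was not tested.

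The 10 regulators did not share a single pattern over the cell types. TMO5, T5L1, LOG3, LOG4, ATHB8 and PHB were vascular, with their highest levels in the stele or pericycle sorts, and PXY was highest in stele at a low level. LHW was at like levels in stele, pericycle and cortex, WOL was present everywhere and highest in epidermis, and AHP6 was close to undetected. The level of each gene in every library is plotted first.

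**Figure D1:**
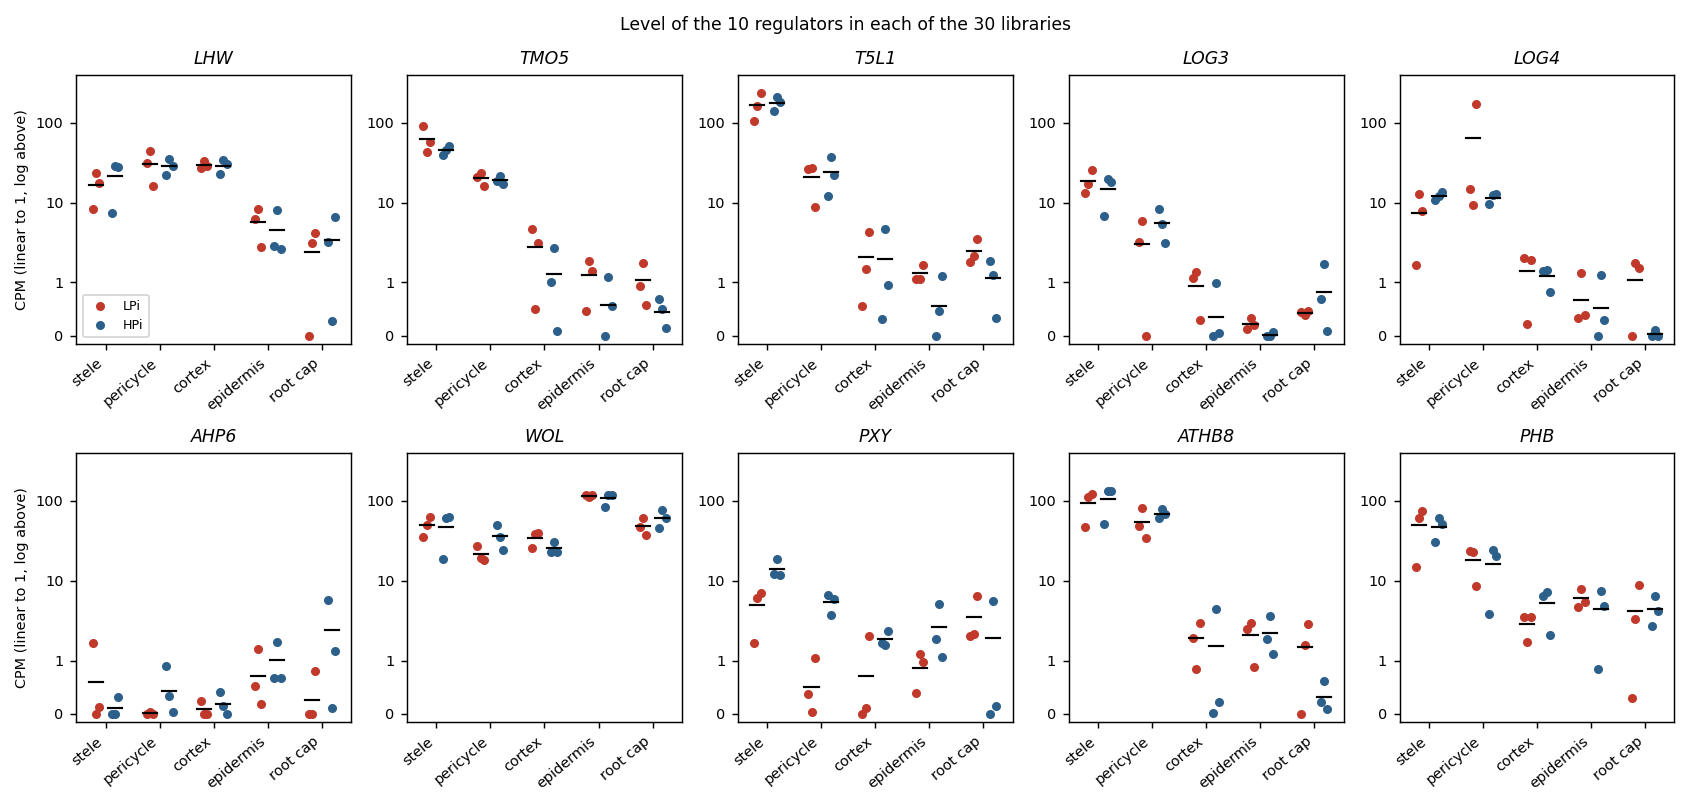
TMM-scaled CPM (y axis, linear to 1 and logarithmic above) of each of the 10 genes in the 30 libraries, by cell type (x axis, "root cap" is the lateral root cap), with LPi points left of HPi points. TMO5, T5L1 and ATHB8 in the 12 stele and pericycle libraries lie above all 18 libraries of the other sorts, WOL is highest in the 6 epidermis libraries, and AHP6 does not exceed 5.72 CPM.

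Each cell type was set against the mean of the other 4, at LPi and at HPi in turn, to ask where the regulators are expressed. This mean is taken over log2 group levels, so a group with few or 0 reads lowers it. In the stele sort at LPi 6 of the 10 genes were higher, where 8.37% of all genes tested were called higher, and at HPi 7 were higher, against 12.1% of all genes. In the pericycle sort at LPi 5 genes were higher (13.9% of all genes) and 1 lower (7.91%), and at HPi 5 were higher (13.2%). The median log2 difference of the 10 genes in stele was 2.85 at LPi and 3.42 at HPi, beside medians over all genes of 0.02 and -0.03. In pericycle the medians of the 10 genes were 1.69 at LPi and 2.08 at HPi, beside -0.02 and 0.18 over all genes. In the outer sorts calls were few or negative: in cortex 1 gene was lower at LPi (3.25% of all genes) and 1 at HPi (3.36%), and in lateral root cap 4 were lower at LPi (9.13%) and 5 at HPi (11.5%). In epidermis 1 gene was higher and 4 lower at LPi (13.5% and 6.04% of all genes), and 1 was higher and 3 lower at HPi (11.5% and 6.23%). These are bulk libraries, in which fewer cells of a type and less RNA per cell cannot be told apart.

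**Figure D2:**
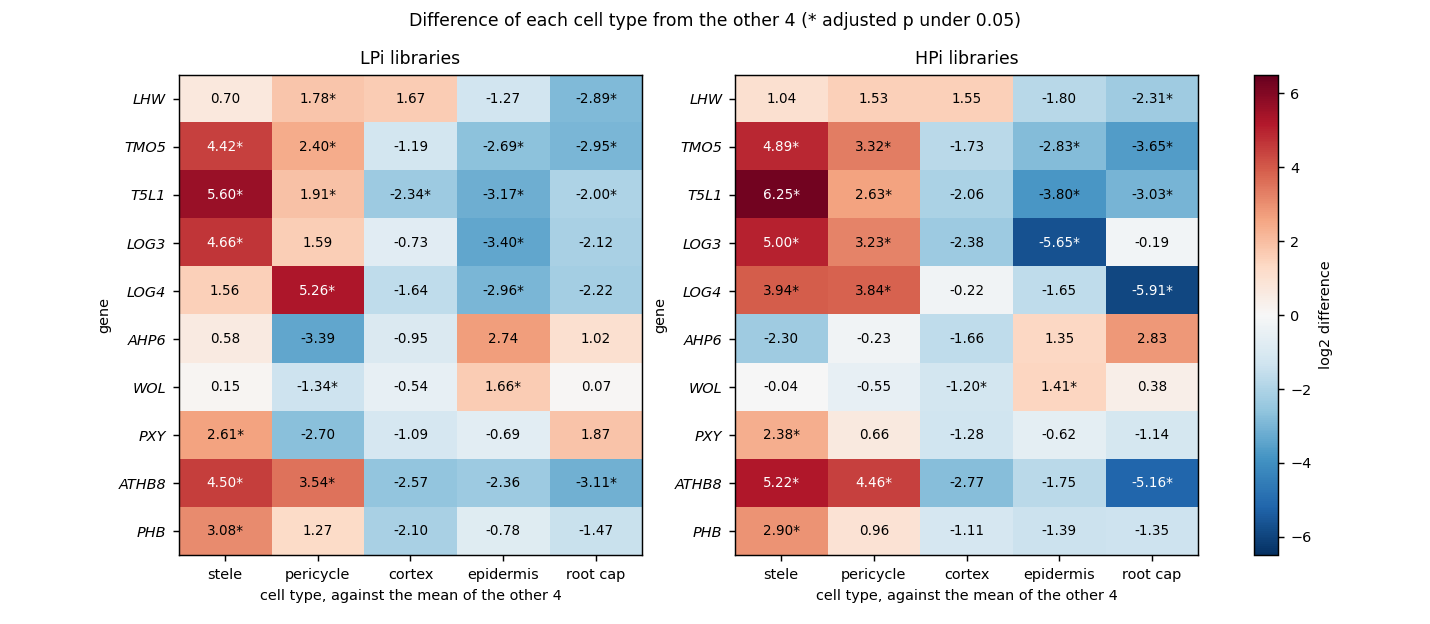
Log2 difference of each cell type from the mean of the other 4 (color), for the 10 genes (rows) and 5 cell types (columns, "root cap" is the lateral root cap), in LPi libraries at left and HPi libraries at right, with stars where the adjusted p was under 0.05. The stele and pericycle columns carry most positive stars, WOL is the only positive star in epidermis, and values of groups with 0 to 3 reads depend on the prior count.

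TMO5 and T5L1, the tissue-restricted partners of the LHW dimer, were the clearest vascular genes. TMO5 (chr3:9369499-9371487, plus strand) had 89.7, 43.0 and 56.5 CPM in the 3 stele LPi libraries, against 39.0, 45.8 and 51.0 CPM in the stele HPi libraries. In pericycle it had 20.9, 23.1 and 16.3 CPM at LPi and 18.4, 21.4 and 17.1 CPM at HPi, and in no library of the 3 outer sorts did it exceed 4.72 CPM. All 6 stele values were above all pericycle values, and all pericycle values above those of the outer sorts. TMO5 was higher in stele by 4.42 log2 units at LPi (SE 0.51, adjusted p = 6.69e-07) and by 4.89 at HPi (SE 0.52, adjusted p = 1.11e-07), and in pericycle by 2.4 at LPi (SE 0.53, adjusted p = 0.00109) and 3.32 at HPi (SE 0.52, adjusted p = 4.04e-05). The single value that stood apart, 89.7 CPM, came from 54 reads in the shallowest library.

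T5L1 (chr1:25861094-25863534, plus strand) had the highest stele levels of the dimer's genes. It stood at 105, 160 and 234 CPM in stele at LPi, against 138, 211 and 181 CPM at HPi. Pericycle libraries had 26.2, 27.3 and 8.68 CPM at LPi, the last from 8 reads, and 12.2, 37.3 and 21.8 CPM at HPi, while the outer sorts stayed at or under 4.68 CPM. The groups again did not overlap, stele being above pericycle and pericycle above the rest. The stele difference was 5.60 at LPi (SE 0.51, adjusted p = 4.29e-08) and 6.25 at HPi (SE 0.52, adjusted p = 7.59e-09), and the pericycle difference was 1.91 at LPi (SE 0.54, adjusted p = 0.0104) and 2.63 at HPi (SE 0.52, adjusted p = 0.000782). The pericycle call at LPi was lost without pericycle LPi replicate 1 or 2, with an adjusted p of up to 0.0851.

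TMO5, T5L1 and ATHB8 were the 3 members for which all 12 stele and pericycle libraries lay above the other 18, a separation found in 1.38% of all genes tested. TMO5 and T5L1 were also the 2 for which the 6 stele libraries lay above the remaining 24, as in 1.05% of all genes. In both outermost sorts the pair was called lower. In epidermis the log2 difference of TMO5 was -2.69 at LPi and -2.83 at HPi and that of T5L1 was -3.17 at LPi and -3.80 at HPi, and in lateral root cap TMO5 had -2.95 at LPi and -3.65 at HPi and T5L1 had -2.00 at LPi and -3.03 at HPi. The lower level in a sort set against a mean that includes stele and pericycle follows in part from how the comparison is built. The TMO5 epidermis calls were lost without epidermis LPi replicate 1 at LPi (adjusted p = 0.0637) and without epidermis HPi replicate 1 or 3 at HPi (up to 0.0809), and the T5L1 lateral root cap call at HPi without lateral root cap HPi replicate 3 (0.109). That of T5L1 in lateral root cap at LPi stood at an adjusted p of 0.0423, reached 0.158, and was lost in most fits that left out a library. In cortex T5L1 was lower at LPi (-2.34, SE 0.71, adjusted p = 0.0325), a call lost without cortex LPi replicate 1 or 2 (adjusted p up to 0.176).

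LHW (chr2:11650358-11654143, plus strand), the partner shared by both, was spread more widely. It had 8.30, 23.3 and 17.5 CPM in stele at LPi, against 7.39, 28.6 and 27.9 CPM at HPi. Pericycle libraries held 30.9, 44.7 and 16.3 CPM at LPi, against 22.3, 35.1 and 28.3 CPM at HPi. Those of cortex held 26.7, 32.6 and 28.5 CPM at LPi, against 22.5, 33.8 and 30.3 CPM at HPi. The stele, pericycle and cortex values overlapped, the lowest stele values being from the 2 shallow libraries with 5 and 11 reads, and epidermis and lateral root cap stayed at or under 8.30 CPM. In stele at HPi the difference from the other sorts was 1.04 with a 95% interval of -0.27 to 2.35 (adjusted p = 0.288). LHW was higher in pericycle at LPi (1.78, SE 0.61, adjusted p = 0.037) but not called there at HPi (1.53, adjusted p = 0.0777). The LPi call was lost without pericycle LPi replicate 1 (adjusted p = 0.104) or replicate 2 (adjusted p = 0.229), and without epidermis LPi 3, cortex LPi 1 or 3, or stele LPi 1 or 3. In lateral root cap LHW was lower, at -2.89 for LPi (adjusted p = 0.0164) and -2.31 for HPi (adjusted p = 0.0376), the HPi call being lost without epidermis HPi replicate 2, epidermis LPi 1, cortex HPi 3, cortex LPi 3, stele HPi 2 or 3, or lateral root cap HPi 1 or 2 or LPi 2 (adjusted p up to 0.164).

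LOG4 and LOG3, the cytokinin-releasing enzymes, shared the vascular pattern at lower levels. LOG3 (chr2:15623928-15627032, minus strand) had 13.3, 17.1 and 25.4 CPM in stele at LPi, against 6.72, 19.6 and 17.8 CPM at HPi. The pericycle values were 3.23, 5.91 and 0 CPM at LPi, the 0 being from the shallow replicate 3, against 8.36, 5.31 and 3.08 CPM at HPi. Stele and pericycle thus overlapped at HPi and not at LPi. LOG3 was higher in stele by 4.66 at LPi (SE 0.71, adjusted p = 3.89e-05) and 5.00 at HPi (SE 0.74, adjusted p = 1.61e-05), and in pericycle at HPi by 3.23 (SE 0.75, adjusted p = 0.00258). In epidermis LOG3 had 2, 3 and 2 reads at LPi and 0, 0 and 2 reads at HPi, and it was called lower there at both levels (adjusted p = 0.0297 and 0.00318). The LPi call was lost without any 1 of the epidermis LPi libraries (adjusted p up to 0.113).

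LOG4 (chr3:19812977-19815666, minus strand) had 1.66, 12.6 and 7.76 CPM in stele at LPi, the first from 1 read, against 10.8, 12.2 and 13.4 CPM at HPi. The pericycle values were 14.9, 9.19 and 170 CPM at LPi, against 9.52, 12.3 and 12.6 CPM at HPi. Stele and pericycle HPi libraries overlapped, and only the shallow pericycle LPi replicate 3, with 157 reads of LOG4, was above 14.9 CPM. In the same library the DOF factor gene AT2G28510 was also high, at 233 CPM against 44.9 to 57.4 CPM in the other 5 pericycle libraries. Most members went the other way. TMO5, T5L1, LHW, LOG3, WOL and ATHB8 had their lowest pericycle level there, PHB and PXY did not, and AHP6 had no read. Root cap and epidermis markers summed to 78.1 and 26.0 CPM in that library, against at most 8.54 and 5.24 CPM in the other 5. LOG4 was higher at HPi in stele (3.94, SE 0.75, adjusted p = 0.000449) and in pericycle (3.84, SE 0.74, adjusted p = 0.000564). At LPi it was higher in pericycle, by 5.26 (SE 0.71, adjusted p = 4.21e-06), and by 2.91 (adjusted p = 0.00762) without pericycle LPi replicate 3. In stele at LPi it was not called (1.56, adjusted p = 0.19), but was without the 3 shallowest libraries (2.39, adjusted p = 0.0394). In epidermis LOG4 had 5, 12 and 4 reads at LPi and 0, 16 and 9 at HPi, and it was called lower there at LPi (adjusted p = 0.0444, and 0.15 without epidermis LPi replicate 1). In lateral root cap at HPi, with 0, 2 and 0 reads, it was called lower as well (adjusted p = 0.00376). LOG4 overlaps the antisense gene AT3G08340 by 1 base; that gene had no read in any library.

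The promoters of 2 members, LOG4 and ATHB8, held a motif that was searched for, and are shown for that reason alone. Searched on both strands of the 250 bases before the annotated start were CACGTG, a sequence bound by many bHLH proteins, and TGTCTC and TGTCGG, sequences bound by auxin response factors. None of the 3 motifs overlaps another in these windows, and capitals mark them (CCGACA is TGTCGG read on the other strand). The sequences are RefSeq, TAIR10.1, printed in the direction of transcription, for LOG4 chr3:19815667-19815916 and for ATHB8 chr4:15868651-15868900, both on the minus strand.
LOG4: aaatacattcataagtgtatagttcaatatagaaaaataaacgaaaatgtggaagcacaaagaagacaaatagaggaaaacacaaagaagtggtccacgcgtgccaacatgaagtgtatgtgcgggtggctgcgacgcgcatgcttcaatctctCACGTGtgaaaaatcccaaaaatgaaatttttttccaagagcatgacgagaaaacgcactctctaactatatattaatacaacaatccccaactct
ATHB8: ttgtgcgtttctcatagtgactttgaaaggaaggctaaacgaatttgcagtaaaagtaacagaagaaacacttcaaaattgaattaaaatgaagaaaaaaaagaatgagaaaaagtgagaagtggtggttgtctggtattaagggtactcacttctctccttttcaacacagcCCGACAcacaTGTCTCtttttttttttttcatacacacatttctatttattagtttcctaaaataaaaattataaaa
CACGTG was found in the LOG4 window only, 96 bases before the start, and in 6.46% of 27561 gene windows of this length. TGTCTC and TGTCGG were found in the ATHB8 window only, at 67 and 77 bases before the start, and in 10.9% and 4.16% of all windows. Each motif was thus in 1 of the 10 members, and a match of letters does not show a bound site.

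WOL (chr2:362983-369707, minus strand), the cytokinin receptor, was the most abundant of the 10 per exon length in epidermis and lateral root cap. Epidermis libraries had 118, 113 and 120 CPM at LPi, against 84.7, 119 and 120 CPM at HPi. Lateral root cap libraries had 46.8, 60.6 and 37.4 CPM at LPi, against 45.3, 76.0 and 61.1 CPM at HPi. Stele libraries had 34.9, 50.6 and 63.3 CPM at LPi, against 18.8, 61.7 and 62.4 CPM at HPi. All 6 epidermis values were above the 24 other values, the nearest being 84.7 and 76.0 CPM, and WOL was the 1 member with this separation, found in 1.29% of all genes. WOL was higher in epidermis by 1.66 at LPi (SE 0.26, adjusted p = 4.41e-05) and 1.41 at HPi (SE 0.26, adjusted p = 0.000236). Pericycle had 27.5, 19.5 and 18.4 CPM at LPi, against 50.002, 35.0 and 24.2 CPM at HPi, and cortex 25.8, 38.2 and 39.3 CPM at LPi, against 22.8, 30.4 and 23.1 CPM at HPi. It was lower in pericycle at LPi (-1.34, SE 0.32, adjusted p = 0.00253) and in cortex at HPi (-1.20, SE 0.31, adjusted p = 0.00963). The cortex call was lost without cortex HPi replicate 1 (adjusted p = 0.0527) or replicate 3 (adjusted p = 0.0548). In stele at HPi the difference was -0.04 with an interval of -0.64 to 0.56.

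AHP6 (chr1:30133718-30134937, plus strand), the inhibitor of cytokinin signalling, was scarcely detected. It had no read in 10 of the 30 libraries and at most 41 reads in any. In lateral root cap it had 0, 0 and 0.814 CPM at LPi, against 5.72, 0.113 and 1.34 CPM at HPi, the first of which was its highest level in any library. In stele it had 1.66, 0 and 0.124 CPM at LPi, against 0, 0 and 0.317 CPM at HPi. It was not called in any comparison by the edgeR test, and its level was too low to order the cell types.

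PXY (chr5:24724337-24728244, minus strand), the receptor kinase of procambial division, was low. It had 1.66, 6.11 and 6.96 CPM in stele at LPi, the first from 1 read, against 12.1, 18.5 and 11.7 CPM at HPi. Pericycle libraries held 0.366, 0.0405 and 1.08 CPM at LPi, from 11, 1 and 1 reads, against 6.67, 3.74 and 5.95 CPM at HPi, from 305, 439 and 168 reads. The LPi values were below the HPi values in both sorts, without overlap. Lateral root cap libraries had 2.05, 2.14 and 6.39 CPM at LPi, overlapping stele at LPi, against 0, 5.67 and 0.143 CPM at HPi. Epidermis and cortex libraries had at most 5.08 and 2.34 CPM. The stele means were 4.91 CPM at LPi and 14.1 CPM at HPi. PXY was higher in stele than in the log2 mean of the other sorts by 2.61 at LPi (SE 0.85, adjusted p = 0.0419) and 2.38 at HPi (SE 0.81, adjusted p = 0.0387). The LPi mean includes the pericycle group with 11, 1 and 1 reads, which lowers it. Both calls were near the threshold, and the HPi call was lost without stele HPi replicate 1, 2 or 3, epidermis HPi 1 or 3, cortex HPi 1, or pericycle HPi 2 or 3 (adjusted p up to 0.212). The LPi call was lost without any 1 of the epidermis libraries, stele LPi or HPi replicate 2 or 3, cortex LPi 2 or HPi 3, pericycle LPi 2 or HPi 3, or lateral root cap LPi 1 or 2 (adjusted p up to 0.232), and with the replicate number as a block (2.46, adjusted p = 0.0719). The stele HPi library with few reads carried 18 reads of PXY and endodermis markers at 1174 CPM.

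ATHB8 (chr4:15863339-15868650, minus strand) and PHB (chr2:14639323-14644355, minus strand), the HD-ZIP III genes, were vascular too. ATHB8 had 46.5, 111 and 123 CPM in stele at LPi, against 51.8, 133 and 132 CPM at HPi. In pericycle it had 48.4, 82.3 and 34.7 CPM at LPi, against 60.9, 79.3 and 68.1 CPM at HPi, and in the outer sorts at most 4.40 CPM. The lower value of each stele group came from the shallow replicate 1, and stele and pericycle overlapped. The stele difference was 4.50 at LPi (SE 0.71, adjusted p = 0.000118) and 5.22 at HPi (SE 0.72, adjusted p = 1.9e-05), and the pericycle difference was 3.54 at LPi (SE 0.71, adjusted p = 0.000647) and 4.46 at HPi (SE 0.72, adjusted p = 0.000127). In lateral root cap it was lower, with -3.11 at LPi (SE 1.07, adjusted p = 0.0403, and 0.127 without lateral root cap LPi replicate 1) and -5.16 at HPi (SE 1.25, adjusted p = 0.00457).

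PHB had 14.9, 61.3 and 74.6 CPM in stele at LPi, against 30.2, 61.0 and 52.2 CPM at HPi. In pericycle it had 23.5, 22.7 and 8.68 CPM at LPi, against 3.83, 24.7 and 20.7 CPM at HPi, and in the outer sorts at most 8.95 CPM. Every stele HPi value was above every pericycle HPi value, whereas at LPi the shallow stele library with 9 reads fell inside the pericycle range. PHB was higher in stele by 3.08 at LPi (SE 0.54, adjusted p = 0.000244) and 2.90 at HPi (SE 0.54, adjusted p = 0.000319), and was not called in pericycle.

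The 2 HD-ZIP III members are the only ones with a site for miR165 and miR166, which is shown since it sets them apart from the other regulators. These microRNAs share the seed, bases 2 to 8, which is in capitals. The miR166 sequence below is encoded at 7 loci and that of miR165 at 2, and both come from the RefSeq annotation of TAIR10.1.
miR166a-3p: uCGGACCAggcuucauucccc
miR165a-3p: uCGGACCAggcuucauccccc
The sites, written 5' to 3' on the transcript strand, pair with the seed through the bases in capitals, and those of ATHB8 (chr4:15866872-15866974) and PHB (chr2:14642530-14642666) each span an intron and lie in coding sequence.
ATHB8: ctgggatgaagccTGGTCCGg
PHB: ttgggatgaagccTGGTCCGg
REV: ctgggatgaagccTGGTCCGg
CNA: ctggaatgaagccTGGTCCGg
ATHB8 and PHB have 4 mismatches to the full complement of miR166 and 3 to that of miR165, counting any base that is not a Watson-Crick pair. Only 11 of 27562 protein-coding genes (0.0399%) held a window with at most 4 mismatches to miR166, while the other 8 regulators had at least 7. REV and CNA, HD-ZIP III genes described with the related genes, are shown for comparison. Mature microRNAs were not measured in these libraries of amplified cDNA.

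Levels can be compared between genes only per exon length, taken from RefSeq. In stele at HPi T5L1 was highest, at 90.5 ± 18.6 CPM per kb (SD, n = 3), followed by ATHB8 at 33.3 ± 14.7, TMO5 at 29.7 ± 3.96, PHB at 15.2 ± 5.03, LOG4 at 13.7 ± 1.51 and LOG3 at 11.8 ± 5.62 CPM per kb. WOL at 10.4 ± 5.45 and LHW at 7.87 ± 4.45 CPM per kb came next, and PXY, at 3.78 ± 1.02, and AHP6, at 0.107 ± 0.186 CPM per kb, were lowest. From ATHB8 to TMO5, and from PHB to PXY, the ranges of mean ± SD of neighbours overlapped. In pericycle at HPi the order was led by ATHB8 at 22.0 ± 2.95 CPM per kb, with LOG4, TMO5, T5L1 and LHW between 10.6 and 12.98 CPM per kb and with overlapping ranges of mean ± SD. In the outer sorts the leading regulators were WOL in epidermis, at 23.6 ± 4.39 CPM per kb, and in lateral root cap, at 13.3 ± 3.36, and LHW in cortex, at 10.7 ± 2.13 CPM per kb.

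**Figure D3:**
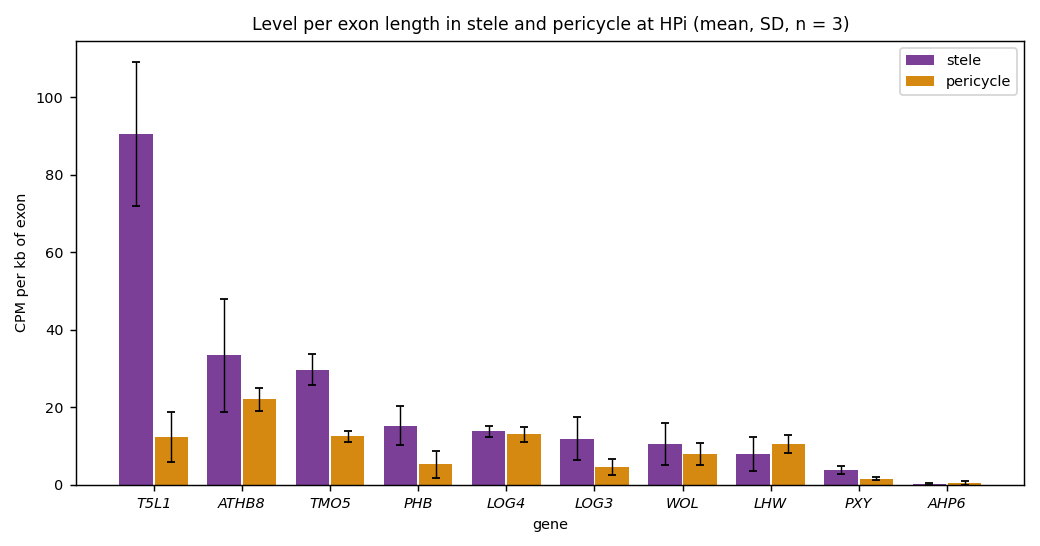
Mean level per kb of exon (CPM per kb, y axis from 0) of the 10 genes (x axis) in stele (left bar of each pair) and pericycle (right bar) at HPi, with the SD of 3 libraries as error bars. T5L1 in stele, at 90.5 CPM per kb, is the tallest bar, and ATHB8, at 22.0 CPM per kb, leads in pericycle.

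The 5 sorts were then compared in pairs at HPi, to ask which neighbours in the order of levels differ. Between stele and pericycle, the inner sorts, only T5L1 was called among the 10 (2.62% of all genes were called higher in stele): its mean was 7.44 times as high, or 2.90 on the log2 scale (SE 0.78, 95% interval 1.27 to 4.52, adjusted p = 0.0293). This call was lost without pericycle HPi replicate 1 (2.55, adjusted p = 0.163), 2 (3.38, adjusted p = 0.0628) or 3 (2.80, adjusted p = 0.154), and without stele HPi replicate 2 (2.72, adjusted p = 0.113) or 3 (2.84, adjusted p = 0.0826). The stele mean was 2.91 times that of pericycle for PHB, 2.64 for LOG3, 2.59 for PXY, 2.38 for TMO5, 1.52 for ATHB8, 1.06 for LOG4 and 0.746 for LHW, none of them called. All 6 stele libraries were above all 6 pericycle libraries for TMO5 and T5L1, which was so in 3.53% of all genes.

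Against the outer sorts most vascular members were called. In stele 6 were higher than in cortex (6.55% of all genes), 6 higher and 1 lower than in epidermis (9.46% and 9.38%), and 7 higher than in lateral root cap (15.8%). In pericycle 4 were higher than in cortex (4.13%), 6 higher and 1 lower than in epidermis (12.7% and 11.5%), and 5 higher than in lateral root cap (15.9%). The gene lower in both against epidermis was WOL, with -1.16 for stele (adjusted p = 0.0258) and -1.57 for pericycle (adjusted p = 0.00245). The stele difference was lost without stele HPi replicate 1, with -0.78 and an adjusted p of 0.159. Between cortex and epidermis LHW was higher (2.68, adjusted p = 0.0426, up to 0.216 over the alternatives) and WOL lower (-2.09, adjusted p = 0.00024), against 8.28% and 7.86% of all genes. Between cortex and lateral root cap LHW (3.08, adjusted p = 0.0222) and LOG4, with 2 reads over the lateral root cap libraries, were higher and WOL lower (-1.26, adjusted p = 0.0179), against 9.79% and 6.45%. No member was called by edgeR between epidermis and lateral root cap (1.92% of all genes; DESeq2 called 1).

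Over the 10 group means of log2 CPM, which share libraries and depth with the values above, Pearson's r between TMO5, T5L1, LOG3, LOG4, ATHB8 and PHB ran between 0.657 (LOG3 and LOG4) and 0.973. It was 0.973 for TMO5 and T5L1, 0.944 for T5L1 and LOG3, 0.942 for TMO5 and ATHB8, 0.926 for T5L1 and PHB, and 0.893 for TMO5 and LOG4. PXY, also higher in stele, followed these less closely, with 0.353 for LOG4, 0.438 for TMO5 and 0.542 for T5L1, and LHW and TMO5 had 0.576. Among the 11436 genes whose mean log2 CPM was at least 2, those most like TMO5 were AT1G77020 and ATK4 (0.984 each) and the HD-ZIP III gene ATHB-15, also called CNA (0.980), and CNA was likewise among the 3 most like T5L1 (0.968). WAT1 (0.968) and LAC1 (0.954) were among those most like PHB, AT1G12990 (0.984) was most like WOL, and CNGC19 (0.992) and EIN4 (0.988) most like LHW. For ATHB8 the closest were AT3G02080, AT1G01100 and the ribosomal protein gene RPS10B (0.994 to 0.995), and for PXY GRP2 (0.915). These are descriptions over 10 points.

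The response to low phosphate was tested in each cell type as LPi against HPi. By the edgeR test none of the 10 members passed in any cell type, where 0% of all genes were called in stele, cortex and epidermis, 0.00402% in pericycle and 0.0241% in lateral root cap. At an unadjusted p under 0.05 there were 2 members in pericycle, 1 in lateral root cap and 0 elsewhere, where all genes gave 12.3% in pericycle, 6.75% in lateral root cap, 3.05% in stele, 4.91% in cortex and 0.977% in epidermis. DESeq2 called 1 member in pericycle, PXY, where it called 1494 of all 24866 genes. It called 0 members in the other sorts, and limma voom called 0. For the members that were well measured the intervals were wide: in stele the 95% interval of T5L1 was -1.60 to 1.43, of TMO5 -1.07 to 1.98, of ATHB8 -2.27 to 1.94, and of WOL -0.70 to 0.83 log2 units.

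PXY in pericycle had the smallest p of the 10. As given above, the LPi libraries held 11, 1 and 1 reads and the HPi libraries 305, 439 and 168 reads, so all 3 LPi levels were below all HPi levels. The log2 difference was -4.29 (SE 1.51, 95% interval -7.44 to -1.14, unadjusted p = 0.00825, adjusted p = 0.195). In DESeq2 it was -3.99 (adjusted p = 0.0247), and over all alternatives it ranged from -5.20 to -3.43, with an adjusted p of 0.0247 to 0.896. Without the shallow pericycle LPi replicate 3 it was -4.57 (adjusted p = 0.896). In stele PXY had -1.41 (95% interval -3.89 to 1.06), in epidermis -1.65 (-4.20 to 0.90), in cortex -1.45 (-4.01 to 1.10) and in lateral root cap 0.81 (-1.64 to 3.26). PXY was the 1 member with all LPi below all HPi libraries in pericycle, as for 12.3% of all genes, and in stele, as for 5.7% of all genes.

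LOG4 was the other member with a small p. In pericycle its log2 difference was 2.46 (SE 1.05, 95% interval 0.27 to 4.66, unadjusted p = 0.0271, adjusted p = 0.323), and it was 0.22 without pericycle LPi replicate 3, the library with 170 CPM. In lateral root cap it had 0, 9 and 13 reads at LPi and 0, 2 and 0 reads at HPi, with an unadjusted p of 0.0117 and an adjusted p of 0.629. LOG3 in epidermis, with 2, 3 and 2 reads at LPi and 0, 0 and 2 at HPi, was the 1 member there with all LPi levels above all HPi levels, as for 4.95% of all genes. WOL in pericycle was at -0.72 (95% interval -1.49 to 0.05, adjusted p = 0.437).

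**Figure D4:**
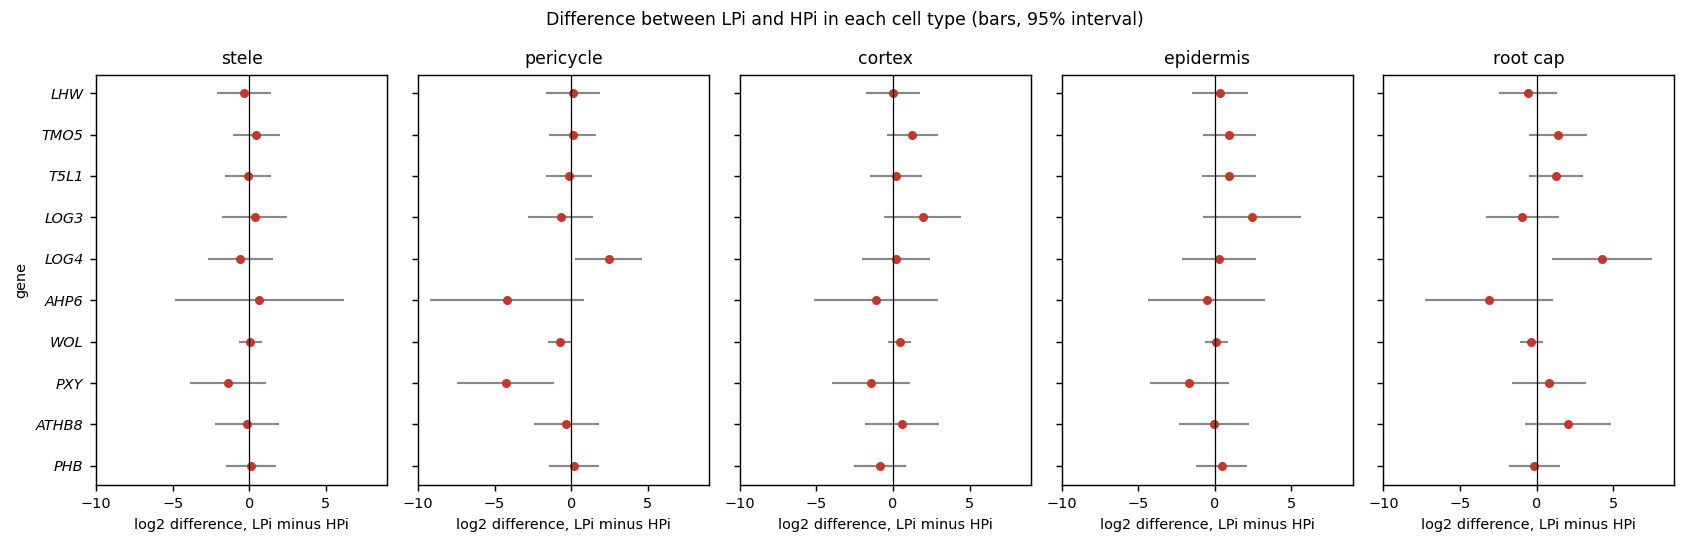
Log2 difference between LPi and HPi (x axis) of the 10 genes (y axis) in each cell type, with the 95% interval as a bar and a line at 0. The pericycle intervals of PXY, -7.44 to -1.14, and of LOG4, 0.27 to 4.66, and the lateral root cap interval of LOG4 do not include 0, and no member passed after adjustment; AHP6, LOG3 and LOG4 rest on few reads in the outer sorts.

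Whether the responses differ between the 5 cell types was asked with a joint F test. No member passed, and none had an unadjusted p under 0.05, which 5.36% of all genes had. The adjusted p was 0.903 for LOG4 and 0.921 for PXY, so the response of PXY in pericycle was not shown to differ from that in other sorts.

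The related genes of the pathway, 50 in 7 lists of which 46 could be tested, were read beside the members. Of the 9 relatives of LHW and TMO5 and SACL inhibitors of the dimer, 4 were higher in stele and 4 in pericycle at HPi, where 12.1% and 13.2% of all genes were. The TMO5 relative AT2G41130 was higher in pericycle by 5.01 (SE 0.68, adjusted p = 1.25e-05) and in stele by 4.17 (SE 0.68, adjusted p = 0.000102). In pericycle it had 60.5, 55.0 and 28.2 CPM at LPi and 70.4, 72.6 and 60.0 CPM at HPi, and in stele 23.3, 43.6 and 39.996 CPM at LPi and 18.8, 58.8 and 48.3 CPM at HPi. Its stele values lay below its pericycle values at HPi, and the 2 sorts overlapped at LPi. The SACL gene AT1G29950 was higher in stele by 3.44 (adjusted p = 1.49e-05) and in pericycle by 3.13 (adjusted p = 4.93e-05).

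Of the 7 tested other HD-ZIP III genes, their ZPR inhibitors and the auxin response factor gene MP, 4 were higher in stele at HPi (12.1% of all genes), and 4 were higher and 2 lower in pericycle (13.2% and 7.17% of all genes). CNA, whose miRNA site is shown above, had 39.9, 130 and 134 CPM in stele at LPi, against 63.9, 112 and 126 CPM at HPi, and was higher in stele at HPi by 5.39 (SE 0.74, adjusted p = 1.89e-05). REV was higher in pericycle by 2.4 (SE 0.35, adjusted p = 1.96e-05) and in stele by 1.90 (SE 0.36, adjusted p = 0.000391). The small inhibitor ZPR1 was higher in stele (2.85, SE 0.40, adjusted p = 8.52e-06), whereas ZPR4 was highest in cortex, with 61.5, 117 and 114 CPM at LPi and 87.1, 60.6 and 111 CPM at HPi and no value above 10.1 CPM elsewhere (5.85 at HPi, adjusted p = 2.27e-07).

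Of the 6 other LOG genes 0 were higher and 1 lower in stele at HPi, where 12.1% of all genes were higher and 5.68% lower, and in pericycle 1 was higher and 1 lower (13.2% and 7.17% of all genes). In lists this short such counts are close to those shares. LOG7 was higher in epidermis (1.07, adjusted p = 0.000969) and lateral root cap (1.49, adjusted p = 2.32e-05) and lower in stele (-1.004, adjusted p = 0.00737, and 0.057 without stele HPi replicate 3) and pericycle (-1.24, adjusted p = 0.0014), and LOG1 was higher in cortex (2.69, adjusted p = 0.000298). Of the 10 other receptors, AHP proteins and type-B response regulators 3 were lower and 0 higher in stele, beside the 5.68% and 12.1% of all genes. The calls of AHK3 (-0.87, adjusted p = 0.0353) and ARR1 (-0.76, adjusted p = 0.0132) were lost without any 1 of the stele HPi libraries. Over the alternatives their adjusted p reached 0.167 and 0.114. The phosphotransfer gene AHP1 had 24.9, 14.4 and 9.45 CPM in stele at LPi and 9.41, 6.65 and 5.44 CPM at HPi, against 194, 75.7 and 148 CPM at LPi and 195, 133 and 133 CPM at HPi in lateral root cap. At HPi AHP1 was lower in stele (-3.44, SE 0.43, adjusted p = 1.72e-06) and higher in lateral root cap (2.16, SE 0.29, adjusted p = 6.36e-06).

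Among the 6 DOF factors and other targets 2 were higher in stele and 3 in pericycle at HPi, beside 12.1% and 13.2% of all genes. They included AT2G28510 in both (3.28 and 3.93) and TMO6 in stele (3.10, adjusted p = 0.0175, and up to 0.093 without stele HPi replicate 2 or 3). Of the 6 tested genes of the PXY pathway, PXL2 was the 1 higher in stele at HPi (2.85, adjusted p = 0.00166), beside 12.1% of all genes. It was also higher at HPi in epidermis (2.57, adjusted p = 0.00336) and cortex (2.17, adjusted p = 0.0186), beside 11.5% and 8.02% of all genes. These 3 differences follow in part from how the comparison is built. The log2 mean of the other 4 sorts includes lateral root cap, with 0 reads of PXL2 in each HPi library. The cortex call was lost in 7 of 39 alternatives. In lateral root cap PXL2 was lower at HPi (-8.59, adjusted p = 3.57e-05). Its highest HPi levels were alike in stele (3.82 CPM), epidermis (3.38 CPM) and cortex (2.98 CPM). PXL2, a relative of PXY, was the only related gene called in a response to low phosphate, in lateral root cap, where 0.0241% of all genes were called. It had 33, 9 and 5 reads there at LPi against 0, 0 and 0 at HPi (adjusted p = 0.0346). This call was lost in 16 of 37 alternatives that tested it. Among them were limma voom (adjusted p = 0.999), no low-count filter (0.0723), and leaving out lateral root cap LPi replicate 1 (0.0813), HPi replicate 2 (0.166) or HPi replicate 3 (0.212), and in DESeq2 the adjusted p was 0.00124. Of the 2 miRNA precursor genes tested, MIR166B was called higher in epidermis and lateral root cap at HPi, beside 11.5% and 12.4% of all genes. It had at most 21 reads in a library. The epidermis call was lost without epidermis HPi replicate 1 or stele HPi replicate 2 or 3 (adjusted p up to 0.0708 over the alternatives). The lateral root cap call was lost without lateral root cap HPi replicate 1 (0.0761).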

How the data were processed

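The authors deposited a table of raw read counts per gene for 30 libraries of FACS-sorted root cells, with 1 column per library and no normalization. According to the submitters' notes, cDNA was prepared with a SMART-Seq ultra low input kit and libraries with a ThruPLEX kit, and the processing used CASAVA 1.4, FastQC 0.11.9, MultiQC 1.7, STAR 2.5.3a, HTSeq 1.99.2 and DESeq2. For the authors' genome build, annotation and strand setting, no value is given in the sources used here. The 5 HTSeq summary lines, 4.99% to 12.5% of the reads of a library, were left out.

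Groups came from the sample labels. The counts were tested with edgeR 4.0.16 (R 4.3.3), after filterByExpr and TMM scaling, in a model with a mean for each of the 10 groups over the 30 libraries (20 residual degrees of freedom, common BCV 0.7495). The robust quasi-likelihood F test was 2-sided, p-values were adjusted by Benjamini-Hochberg over the 24866 genes tested, and calls were made at an adjusted p under 0.05. A log2 difference is the first group minus the second, its standard error (SE) was obtained from the difference and F, as size over root F, and intervals are 95%. Log2 CPM used a prior count of 1. The workflow was tested on simulated data. Few reads limit the precision of a level, and such limits cover counting error only.

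The 10 members were all named. Of the related genes, up to 3 per list and comparison that passed with the smallest p could be named, and for the genes most like a member the 3 with the highest Pearson correlation over the 10 group means. The members and lists were chosen with earlier results of these data known. Loci, exon lengths, microRNAs, target sites and promoters were read from the RefSeq annotation and genome of TAIR10.1.

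Whether replicate numbers pair the LPi and HPi libraries was checked from the correlation of their deviations from the group means. All 3 pairs were above 0.1 in epidermis (0.123 to 0.238) and stele (0.111 to 0.212) and not in the other sorts, a weak hint from the data and not from the labels. Libraries of different cell types with the same number also exceeded 0.1, in 5 of 30 pairs at HPi (up to 0.154) and 4 of 30 at LPi (up to 0.218). Every printed difference comes from the fit without pairing, and the fit with a replicate block was an alternative. Alternatives tried were DESeq2 1.42.0, voom with sample weights in limma 3.58.1, scaling by RLE, no low-count filter, a stricter one (5 CPM in 3 libraries), a replicate block, fits of subsets of libraries, LPi and HPi averaged, fits without the 3 shallowest or the 2 near-identical epidermis libraries, and leaving out each library in turn.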

Additional observations from a re-analysis of the deposited data

How the results depend on the processing

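Of the 86 calls of a member over the comparisons, 58 passed under every alternative and 28 were lost under at least 1. Over 260 results of single genes, the alternatives other than leaving out a library kept the side of the threshold in 2214 cases. They added a call in 85 and removed one in 41. In 1 case a result called in at least 1 of the fits changed sign: WOL in stele at HPi, -0.04, was 0.43 in limma voom (adjusted p = 0.0424). Changes of sign between uncalled results were counted as kept, and the joint tests have no sign. Leaving out 1 library kept 7572, added 49 and removed 179. The cause of these changes was not tested. RLE size factors moved the median log2 difference of all genes by up to 0.32 in a cell type against the others (lateral root cap at HPi), by -0.25 in pericycle at HPi, by 0.28 in the pericycle response and by -0.44 between pericycle and lateral root cap.

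The count of members called changed by over 1.5 times as follows. The number of all genes called changed too, so these counts do not show a change particular to the members. When 1 library was left out, 1474 to 3403 genes were called in cortex at HPi (2831 in the main fit). Between stele and pericycle 490 to 1515 were called (1094 in the main fit). In cortex at LPi it was 1, with 2 under RLE size factors, 2 under the 5 CPM filter, 3 in DESeq2, 3 in limma voom and 2 without the 3 shallowest libraries, and 0 to 4 when 1 library was left out. In cortex at HPi it was 1, with 2 under RLE size factors, 2 under the 5 CPM filter, 5 in DESeq2, 6 in limma voom, 6 with LPi and HPi averaged, and 0 to 5 when 1 library was left out. In epidermis it was 5 at LPi, with 3 without the 2 near-identical libraries and 2 to 6 when 1 was left out, and 4 at HPi, with 7 when LPi and HPi were averaged. In pericycle at HPi it was 5, with 9 in limma voom and 8 when averaged. In lateral root cap at LPi it was 4, with 2 without a filter and 2 to 4 when 1 library was left out. In the pericycle response it was 0, with 1 in DESeq2. Between stele and pericycle it was 1, with 7 in limma voom and 0 to 1 when 1 library was left out. Between pericycle and lateral root cap it was 5, with 10 in limma voom. Between cortex and epidermis it was 2, with 1 under RLE size factors, without a filter, without the 3 shallowest and without the 2 near-identical libraries, and 1 to 2 when 1 library was left out. Between cortex and lateral root cap it was 3, with 1 to 3 when 1 library was left out, and between epidermis and lateral root cap 0, with 1 in DESeq2.

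The number of all genes called in the pericycle response was 1, with 889 under RLE size factors, 164 under the 5 CPM filter and 1494 in DESeq2. With the replicate number as a block, members called in cortex at HPi were 3 against 1 without it, stele calls at LPi were 5 against 6, the lost one being PXY (2.46, adjusted p = 0.0719), and at HPi 7 against 7, and 0 members were called in any response, as without the block. The block also removed the LOG4 call between stele and cortex (3.17, adjusted p = 0.0548). In cortex, pericycle and lateral root cap at most 1 of the 3 pairs of a sort was above 0.1 (correlations of -0.202 to 0.0376, 0.0189 to 0.0613 and 0.00292 to 0.107).

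Depth limits what can be said of PXY, LOG3, LOG4 and AHP6, whose levels rest on 0 to 20 reads in several libraries, and of stele LPi replicate 1, in which 1 read is 1.66 CPM. With 3 libraries per group and a BCV of 0.7495, the intervals leave room for changes of over 1 log2 unit in most members.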
